A study of Rattus norvegicus with 12 samples.

Results

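Bhlhe22, Plat, Asb4 and F3 are 4 genes measured in INS-1, an insulin-secreting cell line from a rat insulinoma, and were taken by name from the 9694 genes of the deposited expression table. They had been put together as genes raised by I-BET762 with and without cytokines. The group levels bear this out for Bhlhe22, Plat and F3. They go against it for Asb4, which was higher with I-BET762 only in cells that also received cytokines. The genes were selected on these same group levels with and without I-BET762, so the differences with I-BET762 are a description and carry no test.

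The study sequenced 12 libraries of INS-1 cells, 3 in each of 4 groups. CCIB cells received a cytokine cocktail together with I-BET762, CCVC cells the cocktail with vehicle control, IB cells I-BET762 at 500 nM alone, and VC cells the vehicle control alone. The cocktail combined 10 ng/mL of IL-1β with 100 ng/mL of IFN-γ and 25 ng/mL of TNF-α, and was added after 48 h of I-BET762 or vehicle. The treatment protocol and the study's text give 8 h of cytokines for these libraries, whereas the deposited design text places them in the final 24 h of a total of 72 h. INS-1 is a single tumor line, and the labels do not say whether the libraries of a group came from separate cultures.

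The table holds 1 FPKM value per group, a read abundance corrected for the length of the gene and the depth of the library, and is printed here as the authors' group mean. It holds 0 columns of single libraries, so no spread, test or interval can be given, and the depth behind each value is not known here. Differences are log2 ratios of group means to which 1 FPKM was added. They cover the 8795 genes whose 4 group means averaged 1 FPKM or more, and a gene was counted as higher or lower from 1.5-fold on. Since 1 FPKM was added, these ratios understate the change of low genes. The table lists only genes the authors had called at an adjusted p under 0.05 between some groups, and a gene outside it is not listed rather than absent. The β-cell label fits the level of Ins1, which made up most of the summed β-cell markers (20738 FPKM in CCIB). The sum was 23788 FPKM in CCIB, 12599 in CCVC, 33432 in IB and 16125 in VC. It does not stand for the single markers. Of the 10 averaging 1 FPKM or more, 2 were higher and 4 lower in CCIB than in VC. Their median log2 ratio was -0.50, and over all genes 13.7% were higher and 21% lower. Ucn3 reached no more than 1.35 FPKM, and Ins2 was at 86.5 FPKM in IB. Of 12 β-cell genes 11 were listed, which shows only that they were called between some groups. Markers of other cells were listed as well. Of 12 genes of other endocrine cells 3 were listed, summing to 784 to 1509 FPKM over the groups, with Gcg, the glucagon gene, highest in IB at 1240 FPKM. Of 12 mesenchymal markers 4 were listed, summing to 228 to 308 FPKM, most of it from Fn1 and Thy1 (155 and 152 FPKM in IB). Of 12 acinar and duct markers 4 were listed, summing to 143 to 221 FPKM, most of it from Krt7 (218 FPKM in CCIB). The part of these other markers in the results was not tested. Of 12 endothelial markers 6 were listed, with a summed level of 21.4 FPKM in CCIB, 30.1 in CCVC, 31.3 in IB and 36.8 in VC, and Pecam1 and Cdh5 were not listed. Of 12 leucocyte markers only Cd74, which IFN-γ induces in many cells, was listed.

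I-BET762 occupies the bromodomains with which the BET proteins bind acetylated histones. Blocking BET proteins is best known for lowering genes that depend on strong enhancers, while a smaller set of genes is higher in treated cells, among them Hexim1, an inhibitor of transcription elongation that serves as a marker of the drug. Hexim1 was at 37.8 FPKM in IB and 18.0 in VC, and at 13.1 FPKM in CCIB and 6.86 in CCVC. The 4 genes are otherwise unrelated. Bhlhe22 encodes a neuronal transcription factor of the basic helix-loop-helix (bHLH) class, Plat a secreted protease, Asb4 a subunit of a ubiquitin ligase and F3 the cell surface protein that starts blood clotting.

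**Figure D1:**
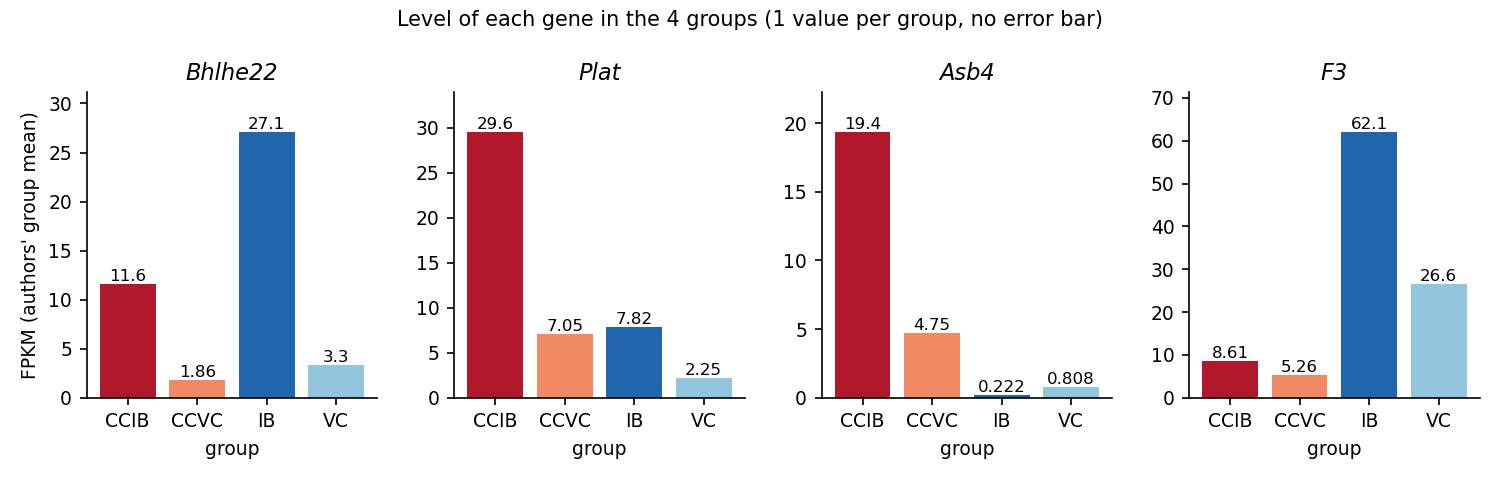
FPKM (the authors' group mean, linear axis from 0) of Bhlhe22, Plat, Asb4 and F3 in CCIB, CCVC, IB and VC, with 1 bar per group and no error bars because the table holds no single libraries. Bhlhe22 and F3 were highest in IB, at 27.1 and 62.1 FPKM, while Plat and Asb4 were highest in CCIB, at 29.6 and 19.4 FPKM.

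Bhlhe22 (ENSRNOG00000021745, chromosome 2 from 122425612 to 122428723, plus strand, in the coordinates of the table, whose genome build is not given in the sources used here) encodes a bHLH protein that in the mouse represses transcription in developing neurons. It was at 27.1 FPKM in IB, against 3.30 in VC, and at 11.6 FPKM in CCIB, against 1.86 in CCVC. The gene was thus low in both groups without I-BET762 and several-fold higher in both groups with it. Without a pseudocount these are ratios of 8.22 and 6.27. On the log2 scale with 1 FPKM added the differences were 2.71 and 2.15, and the first of these ranked 1 among the 8795 genes and the second ranked 5. With cytokines the level was lower both with I-BET762 (CCIB against IB, log2 ratio -1.15) and without it (CCVC against VC, -0.59). The value for CCVC against VC lies at the edge of 1.5-fold and no longer reached it when all ratios were centered on their median. Bhlhe22 has no annotated intron in the table, since its exon length of 3112 bases equals its span.

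Plat (ENSRNOG00000019018, chromosome 16 from 73730256 to 73754851, minus strand) encodes tissue-type plasminogen activator, which cuts plasminogen into the fibrin-degrading protease plasmin. Its level was 7.82 FPKM in IB, against 2.25 in VC, and 29.6 FPKM in CCIB, against 7.05 in CCVC. The levels with I-BET762 alone and with cytokines alone were close to each other, and the cells with both agents had the highest. The ratio to VC without a pseudocount was 3.13 in CCVC, 3.47 in IB and 13.1 in CCIB, where the product of the first 2 ratios is 10.9. On the log2 scale the I-BET762 difference was 1.92 with cytokines and 1.44 without, and the cytokine difference was 1.79 with I-BET762 and 1.31 without. Plat was the only one of the 4 genes that was higher in all of these comparisons.

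Asb4 (ENSRNOG00000009197, chromosome 4 from 30369571 to 30407201, plus strand) encodes an ankyrin repeat protein whose SOCS box joins it to a Cul5 ubiquitin ligase, and in the mouse it is an imprinted gene. It was at 19.4 FPKM in CCIB, against 4.75 in CCVC, but at 0.222 FPKM in IB, against 0.808 in VC. Asb4 was low in resting cells. Its IB level stood above that of 0.466% of the 8795 genes averaging 1 FPKM or more, and its VC level above that of 1.63%. Asb4 passed this minimum only through its levels with cytokines, so its low place in resting cells follows in part from the minimum. With cytokines I-BET762 went with a level 4.07 times as high (log2 ratio 1.82, ranked 9), and without cytokines with a lower one (log2 ratio -0.57). The lower level in IB missed 1.5-fold with 1 FPKM added and passed it with 0.1 FPKM added (log2 ratio -1.50), so the direction is the same but the call rests on the pseudocount. The difference between the I-BET762 log2 ratios with and without cytokines was 2.39, which ranked 6 among the 8795 genes. Cytokines went with a higher level in both settings, with log2 ratios of 4.06 for CCIB against IB and 1.67 for CCVC against VC. From the levels of IB and CCVC a product of ratios of 1.62 over VC would follow, against a ratio of 24.0 in CCIB. Whether fewer reads at such low levels moved these ratios was not tested.

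The start region of Asb4 is shown because this gene departs from the others, and because of the 4 genes 1 matched the RefSeq promoter sequences used here. It covers 250 bases before and 50 bases after the RefSeq start, chr4:34473277-34473576 on the plus strand of GRCr8, which is not the coordinate system of the table. Capitals mark the only match among the motifs searched.

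Asb4: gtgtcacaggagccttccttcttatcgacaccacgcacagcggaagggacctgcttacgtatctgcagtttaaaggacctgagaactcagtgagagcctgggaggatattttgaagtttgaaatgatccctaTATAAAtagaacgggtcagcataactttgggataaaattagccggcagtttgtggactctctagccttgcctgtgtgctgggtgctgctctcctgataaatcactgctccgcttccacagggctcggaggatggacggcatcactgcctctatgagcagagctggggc

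The match is TATAAA, the letters of a TATA box, and begins at position -118 from the RefSeq start, farther upstream than a TATA box usually lies. It was sought on both strands, as were the others, and 14.2% of 33469 rat promoters of this length hold it. No match was found for the AP-1 site TGANTCA (held by 7.33% of the promoters), an NF-κB-like site (1.53%), the interferon motifs GAS (TTCNNNGAA, 8.87%) and ISRE core (3.92%), the GC box GGGCGG (33.1%), the cAMP response element TGACGTCA (1.83%) or the E-box CANNTG (72.1%), to which bHLH factors bind. None of these motifs overlaps another in this window, since only 1 was found. The window says nothing on sites farther away.

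F3 (ENSRNOG00000011800, chromosome 2 from 243348430 to 243360438, plus strand) encodes tissue factor, the receptor of coagulation factor VII, which is known on islet cells for setting off clotting when islets are exposed to blood. Its level was 62.1 FPKM in IB, against 26.6 in VC, and 8.61 FPKM in CCIB, against 5.26 in CCVC. F3 was the highest of the 4 genes in resting cells, and its 2 levels with cytokines were both under its VC level. I-BET762 went with a ratio of 2.33 without cytokines (log2 ratio 1.19, ranked 42) and of 1.64 with them (log2 ratio 0.62, ranked 257), the smallest I-BET762 difference among the 4 genes in cytokine-exposed cells. The cytokine differences were larger and in the other direction, with log2 ratios of -2.71 for CCIB against IB and -2.14 for CCVC against VC. In CCIB the level was 0.323 times that of VC.

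Counted together, 3 of the 4 genes were 1.5-fold or more higher in IB than in VC, as were 4.96% of all genes. In CCIB against CCVC it was 4 of 4, beside 3.4% of all genes, and in both comparisons 3 of 4, beside 1.86% of all genes. These counts follow from how the genes were chosen, and nothing is read from them. In CCVC against VC, 2 of the 4 were higher (Plat and Asb4), beside 13.9% of all genes, and 2 were lower (Bhlhe22 and F3), beside 10.2%. In CCIB against IB the same split was seen, beside 12.9% of all genes in each direction. In CCIB against VC, 3 were higher, beside 13.7%, and F3 was lower, beside 21%. The I-BET762 difference was at least 1.5-fold larger with cytokines for Asb4 alone, beside 2.01% of all genes, and at least 1.5-fold smaller for 0 of the 4, beside 2.84%. The values were 0.48 for Plat, -0.56 for Bhlhe22 and -0.57 for F3, so the I-BET762 ratio was somewhat larger with cytokines for Plat and somewhat smaller for Bhlhe22 and F3, and for none of these did it reach 1.5-fold. Both I-BET762 comparisons share groups with the cytokine comparisons, so the ratios of a gene are not independent of each other.

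Of all genes, 164 were 1.5-fold or more higher with I-BET762 in both states, and the 3 genes can be placed among them by the smaller of their 2 log2 ratios. Bhlhe22 ranked 1 and Plat ranked 3 in that order, while F3 ranked 138. Between Bhlhe22 and Plat stood Mff, which encodes a receptor of mitochondrial fission, at 16.0 FPKM in IB and 2.26 in VC, and at 7.57 FPKM in CCIB and 1.84 in CCVC. The next named gene was Igf1r, the insulin-like growth factor receptor, at 84.9 FPKM in CCIB and 30.3 in CCVC, and at 42.0 FPKM in IB and 16.4 in VC. The transcription factor gene Runx1, the growth factor gene Tgfb1, Glipr2, the palmitoyltransferase gene Zdhhc14, the cadherin gene Cdh23 and the cobalamin receptor gene Cd320 completed the first 10 genes, counting those that have a symbol and reached 5 FPKM in some group. Their smaller log2 ratios lay between 1.08 for Cd320 and 1.29 for Runx1, against 2.15 for Bhlhe22 and 1.44 for Plat. F3 stood between Tgfbr3l and Sh2b3 (both 0.62) above it and Lyrm5 (0.62) and RGD1560394 (0.61) below it. The last gene inside 1.5-fold was Xpr1 and the first outside it was Dact3, at smaller log2 ratios of 0.59 and 0.58. Asb4 ranked 7388 in this order, at -0.57, with Rab30 and Kif19 above it and Jazf1 below it.

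**Figure D2:**
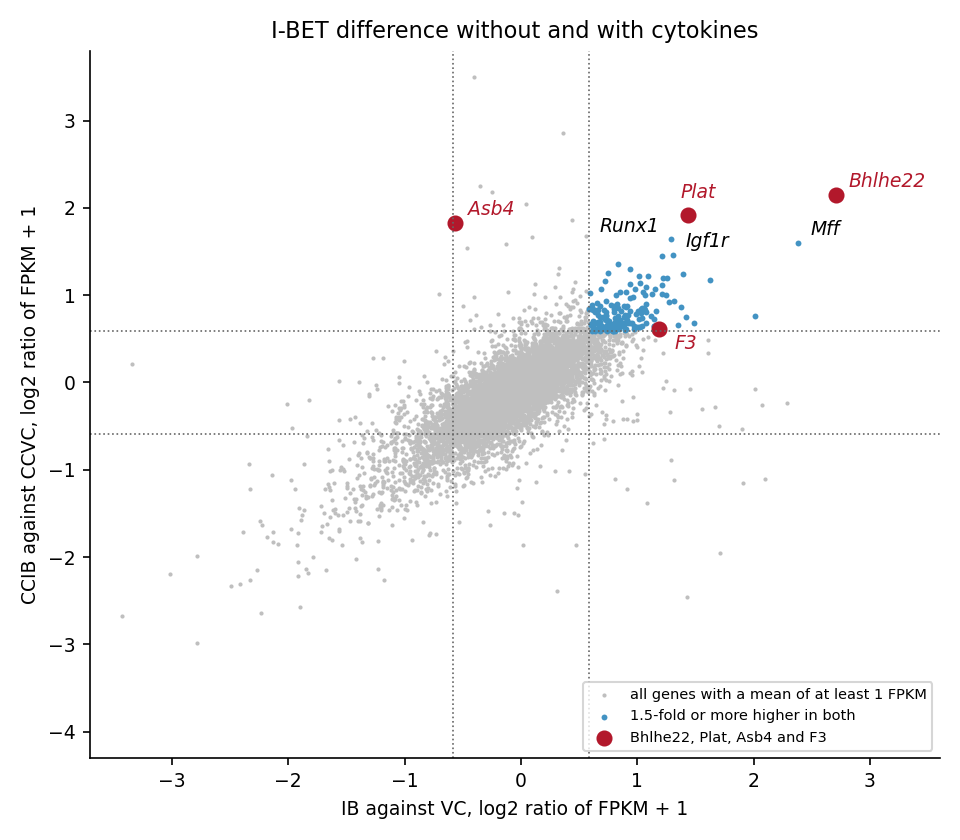
Log2 ratio of FPKM + 1 in CCIB against CCVC (vertical axis) plotted against that in IB against VC (horizontal axis) for the 8795 genes averaging 1 FPKM or more, with dotted lines at 1.5-fold and the 164 genes higher in both in blue. Bhlhe22 (2.71 and 2.15), Plat (1.44 and 1.92) and F3 (1.19 and 0.62) lie in the upper right field, given here horizontal value first, while Asb4 (-0.57 and 1.82) lies to the left of it.

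The 164 genes differed in their levels with cytokines. In CCVC against VC, 111 of the 164 passed 1.5-fold neither way. A further 21 (12.8%, or 0.239% of all genes) were higher, as was Plat, and 32 (19.5%, or 0.364% of all genes) were lower, as were F3 and, at the edge, Bhlhe22. Over all 8795 genes the shares were 13.9% higher and 10.2% lower. Asb4 was not among the 164. Of the 299 genes higher in CCIB than in CCVC, which include the 164, 135 (45.2%) did not reach 1.5-fold in IB against VC, Asb4 among them. Of the 299, 28 (9.36%), again with Asb4, were at least slightly lower in IB than in VC. Genes that were 1.5-fold or more above CCVC in CCIB and also that much above VC in CCVC numbered 71 (0.807% of all genes). Plat and Asb4 were among them, and 12 of the 71 (0.136% of all genes), Asb4 included, were at least slightly lower in IB than in VC.

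The genes whose 3 log2 ratios to VC lay nearest to those of each gene, by Euclidean distance, differed from gene to gene. Nearest to F3 were Dusp6, a phosphatase that restrains ERK (distance 0.27), Vdr, the vitamin D receptor (0.43), and Nr4a1, an orphan nuclear receptor that is quickly induced by many signals (0.49). Dusp6 was at 18.0 FPKM in IB, against 7.75 in VC, and at 1.84 FPKM in CCIB, against 0.673 in CCVC. Nr4a1 had a similar course in resting cells, at 33.2 FPKM in IB and 13.4 in VC, but was at 3.601 FPKM in CCIB and 3.53 in CCVC. In all, 10 genes lay within a distance of 1 of F3.

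Fewer genes lay near the other 3. Within a distance of 1 there were 3 genes for Asb4, 1 for Plat and 1 for Bhlhe22. Nearest to Asb4 were the cytokine gene Lif (0.89), the creatine kinase gene Ckmt1b (0.89) and Nudt17 (0.94). Lif was at 53.7 FPKM in CCIB and 30.8 in CCVC, and at 4.16 FPKM in IB and 4.91 in VC. Nudt17 was, like Asb4, under 1 FPKM in resting cells, at 0.275 FPKM in IB and 0.687 in VC, and at 19.1 FPKM in CCIB and 9.18 in CCVC. Nearest to Plat were the heparan sulfate proteoglycan gene Sdc4 (0.73), Igf1r (1.04) and Swap70 (1.09). Sdc4 was at 197.5 FPKM in CCIB and 76.8 in CCVC, and at 46.1 FPKM in IB and 25.4 in VC. Nearest to Bhlhe22 was Mff (0.53), and the next, Tgfb1 (1.63) and LOC684828 (1.64), were far less like it. These distances rest on 4 group means that the genes share, and no likelihood is attached to them.

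**Figure D3:**
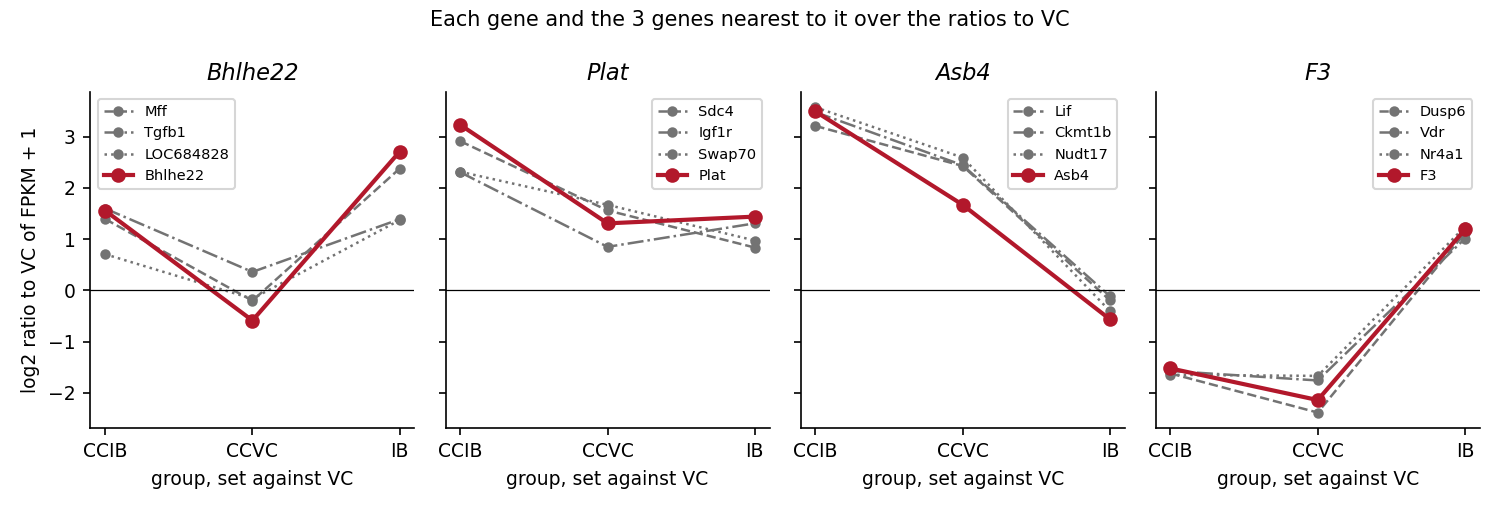
Log2 ratio to VC of FPKM + 1 (vertical axis) in CCIB, CCVC and IB (horizontal axis) for each of the 4 genes (red, thick line) and the 3 genes nearest to it (gray, dashed or dotted lines). The lines of Dusp6, Vdr and Nr4a1 run close to that of F3 (distances 0.27 to 0.49), while those of Tgfb1 and LOC684828 stand well off that of Bhlhe22 (1.63 and 1.64).

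The genes listed with Plat under plasminogen activation went no single way with I-BET762. Of 18 genes of this list, 11 were in the table and 10 averaged 1 FPKM or more. The 10 include Tmem27, which is not itself a gene of plasminogen activation and was counted neither way in both comparisons. Leaving Plat out, 1 of 9 was higher in IB than in VC, 2 were lower and 6 were neither, with a median log2 ratio of -0.09, beside -0.04 over all genes, of which 4.96% were higher and 10.5% lower. In CCIB against CCVC, 2 were higher, 2 lower and 5 neither, with a median of -0.13, beside -0.07 over all genes, of which 3.4% were higher and 11.6% lower. The higher ones were inhibitors of Plat. Serpini1, neuroserpin, was higher in both states, as was Plat, at 57.6 FPKM in IB and 35.9 in VC, and at 57.8 FPKM in CCIB and 37.3 in CCVC. Serpine2, protease nexin-1, was at 1.61 FPKM in CCIB and 0.72 in CCVC, and at 2.61 FPKM in IB and 1.65 in VC, where it passed 1.5-fold only with 0.1 FPKM added. Lower in both states were Lrp1, a receptor that clears Plat from the cell surface (3.49 FPKM in IB and 6.49 in VC, 4.31 in CCIB and 7.57 in CCVC), and Cpb2, a carboxypeptidase that slows the lysis of fibrin (0.360 FPKM in IB and 2.56 in VC, 0.692 in CCIB and 2.52 in CCVC). S100a10 and Anxa2, whose products hold plasminogen at the cell surface, were counted neither way in both comparisons. Plg, the substrate of Plat, was listed but had no group above 0.444 FPKM.

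Besides F3, the genes of coagulation averaging 1 FPKM or more passed 1.5-fold with I-BET762 in neither state. Of 27 genes of coagulation, 9 were in the table and 7 averaged 1 FPKM or more. Leaving F3 out, 0 of 6 were higher and 0 were lower in IB against VC (median log2 ratio 0.06) as in CCIB against CCVC (0.04), where 4.96% and 3.4% of all genes were higher and 10.5% and 11.6% lower. With so few genes these shares lead to counts near 0. Below the minimum, Serpinc1, the antithrombin gene, was at 1.38 FPKM in CCIB and 0.545 in CCVC, a log2 ratio of 0.62 like that of F3, and at 0.639 FPKM in IB and 0.349 in VC. F2r, a thrombin receptor, was at 6.62 FPKM in IB and 7.27 in VC, and at 4.02 FPKM in CCIB and 5.21 in CCVC. Pros1, an anticoagulant cofactor, was at 11.0 FPKM in IB and 10.6 in VC, and at 8.71 FPKM in CCIB and 9.39 in CCVC. In CCVC against VC, 1 of the 6 was lower and 5 were neither, beside 10.2% lower over all genes. It was Lman1, a gene of a cargo receptor for factors V and VIII (78.1 FPKM in CCVC and 119 in VC). F7, whose product F3 binds, and Tfpi, which inhibits the complex, were not listed.

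No other measured gene of the Asb4 ligase family was 1.5-fold higher with I-BET762. Of 27 genes of the ASB family and their ligase, 10 were in the table and 8 averaged 1 FPKM or more. The 8 include Hif1an, which encodes neither an ASB protein nor a ligase subunit. Of the 7 besides Asb4, 0 passed 1.5-fold in IB against VC, beside 4.96% higher and 10.5% lower over all genes. In CCIB against CCVC 0 were higher and 2 lower, beside 3.4% higher and 11.6% lower over all genes. With 7 genes, shares of this size give few or no calls, so nothing is read from these counts. The lower ones were Asb16 (5.24 FPKM in CCIB and 11.3 in CCVC, 13.7 in IB and 20.5 in VC) and Asb13 (9.30 FPKM in CCIB and 15.1 in CCVC, 10.7 in IB and 14.7 in VC). The call of Asb13 was lost when ratios were centered on their median. Of the shared ligase subunits, the elongin C gene Tceb1 was at 113 FPKM in CCIB and 127 in CCVC, the elongin B gene Tceb2 at 29.0 FPKM in CCIB and 21.6 in CCVC, and the RING subunit gene Rnf7 at 9.50 FPKM in CCIB and 9.22 in CCVC. Cul5 was not listed.

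Among the genes of the bHLH list, as among all genes, more were lower than higher with I-BET762. Of 52 genes of this list, 20 were in the table and 17 averaged 1 FPKM or more. The 17 include Prdm8, a partner of Bhlhe22 that is not itself a bHLH gene. Besides Bhlhe22, 2 of 16 were higher in IB than in VC, 5 were lower and 9 were neither, with a median log2 ratio of -0.36, where 4.96% of all genes were higher and 10.5% lower. The 5 lower became 4 with centering on the median or upper quartile scaling, and 6 with 0.1 FPKM added. In CCIB against CCVC, 0 of 16 were higher, 4 lower and 12 neither, with a median of -0.16, where 3.4% of all genes were higher and 11.6% lower. The 4 lower include Prdm8 (log2 ratio -0.90). The 2 higher in IB were genes of Id proteins, which lack a basic region and hold back other bHLH factors, with Id4 at 80.8 FPKM in IB and 42.4 in VC and Id1 at 33.1 FPKM in IB and 21.6 in VC. In CCIB against CCVC, Id4 was at 52.4 and 35.3 FPKM, just under 1.5-fold. With centering on the median or with upper quartile scaling it reached 1.5-fold, so 1 of the 16 was then higher. Lower in both states were Hes6 (11.6 FPKM in IB and 20.6 in VC, 5.07 in CCIB and 14.8 in CCVC) and Msc (1.58 FPKM in IB and 3.22 in VC, 3.17 in CCIB and 5.80 in CCVC).

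The closest relatives and partners of Bhlhe22 did not share its course. Bhlhe23, its nearest relative, was listed with a mean under 1 FPKM, at 0.0432 FPKM in IB and 0.960 in VC, and listed at 0 FPKM in CCIB and at 0.812 in CCVC. Prdm8, which in mouse neurons represses genes together with Bhlhe22, was at 1.19 FPKM in IB and 1.89 in VC, and at 0.490 FPKM in CCIB and 1.78 in CCVC. Of the E proteins, with which many bHLH factors pair, Tcf12 was at 12.7 FPKM in IB and 11.8 in VC, and at 15.0 FPKM in CCIB and 13.7 in CCVC, and Tcf3 at 27.7 FPKM in IB and 33.7 in VC, and at 26.1 FPKM in CCIB and 30.1 in CCVC.

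**Figure D4:**
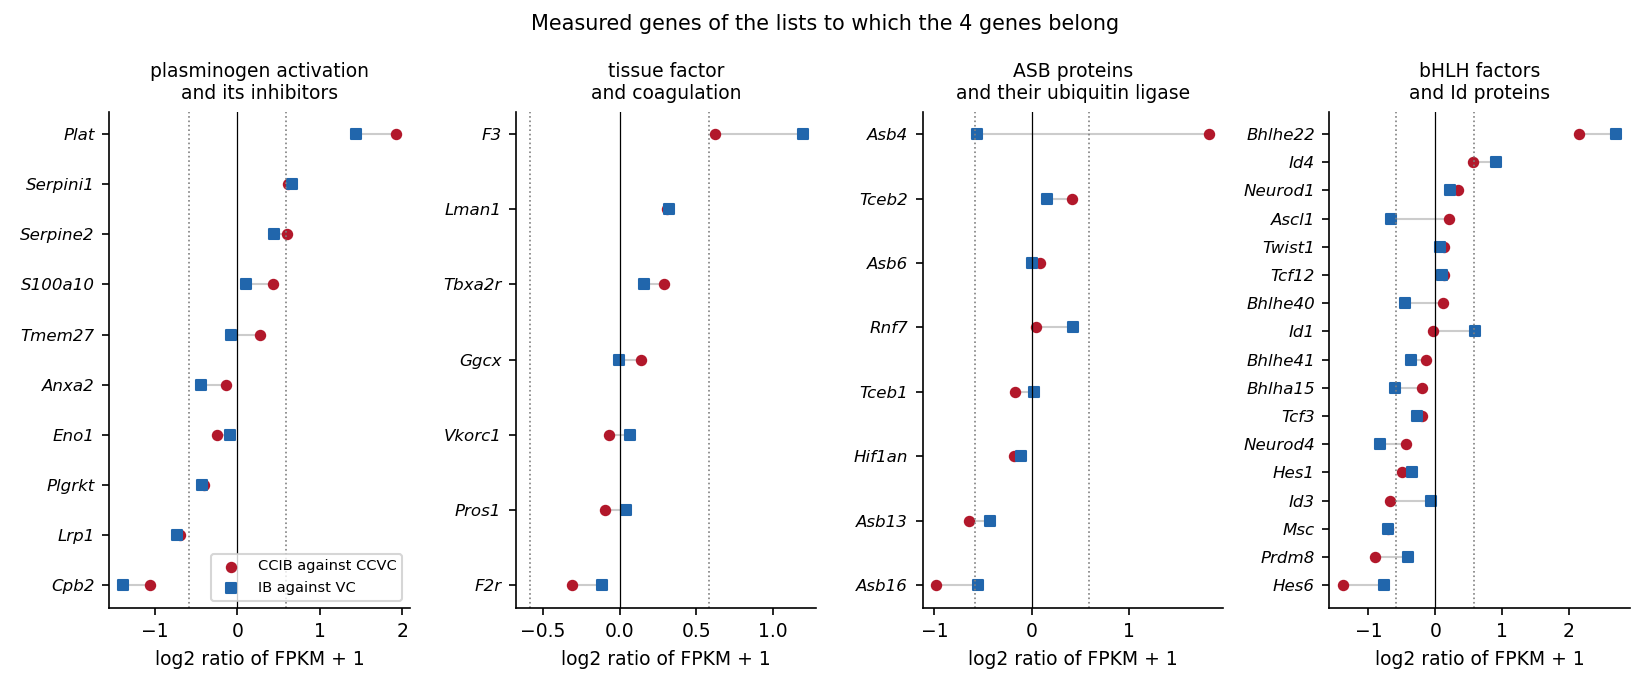
Log2 ratio of FPKM + 1 (horizontal axis) of the genes averaging 1 FPKM or more in each of the 4 lists (1 row per gene), with red circles for CCIB against CCVC, blue squares for IB against VC and dotted lines at 1.5-fold. In each list its member among the 4 genes has the highest red circle, from 0.62 for F3 to 2.15 for Bhlhe22. The 4 genes were chosen with this comparison known, so nothing is read from these places. Serpinc1, left out because it averaged under 1 FPKM, has a red value like that of F3 (0.622 and 0.618). Among the 4 genes, Asb4 is the one whose blue square lies on the other side of 0.

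Along the chromosomes of the 4 genes, 26 listed genes averaging 1 FPKM or more started within 1 Mb of them. RefSeq has, in GRCr8, 71 protein-coding genes in windows of this size around the 4 genes, of which 26 were listed. Most of the 71 were thus not in the table. The 26 neighbors counted below are those by the table's coordinates, and the sets differ, with 7 listed around F3 against 9 in RefSeq. The neighbor nearest to Plat was Ap3m2, a subunit gene of the AP-3 adaptor of vesicle transport (chromosome 16 from 73709144 to 73724608, plus strand), whose 3′ end faces that of Plat at a gap of 5.65 kb. It was the 1 neighbor of 26 that passed 1.5-fold higher in both states, beside 1.86% of all genes, at 13.1 FPKM in IB and 5.74 in VC, and at 17.3 FPKM in CCIB and 9.24 in CCVC. Whether the libraries keep strand is not given in the sources used here, and reads running past the annotated end of either gene were not tested. On the other side of Plat lay Ikbkb, the NF-κB kinase gene, at 16.6 FPKM in IB and 17.0 in VC, and at 21.3 FPKM in CCIB and 19.5 in CCVC. Of the 12 neighbors of Plat, the only other one past 1.5-fold was Nek3 in IB against VC (4.91 and 2.87 FPKM), which makes 2 of 12 higher in that comparison, beside 4.96% of all genes.

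Of the 6 listed neighbors of Asb4, 3 were lower in IB than in VC, beside 10.5% of all genes, and 3 were lower in CCIB than in CCVC, beside 11.6%. Pon2, a lactonase gene next to Asb4, was at 7.60 FPKM in IB and 18.1 in VC, and at 5.64 FPKM in CCIB and 9.92 in CCVC. Casd1 was lower in both states as well, at 7.91 FPKM in IB and 12.8 in VC and at 5.11 FPKM in CCIB and 8.63 in CCVC. Ppp1r9a was at 6.44 FPKM in IB and 11.8 in VC, and at 8.33 FPKM in CCIB and 11.8 in CCVC. LOC100911994 was at 1.66 FPKM in IB and 0.414 in VC, and at 1.95 FPKM in CCIB and 5.89 in CCVC, so it was higher in one comparison and lower in the other. None of the 6 shared the higher level of Asb4 in CCIB against CCVC.

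Of the 7 neighbors of F3, Slc44a3 was lower in both states, at 10.8 FPKM in IB and 27.4 in VC and at 4.59 FPKM in CCIB and 12.6 in CCVC, and the other 6 passed 1.5-fold neither way, beside 10.5% and 11.6% of all genes lower. Abcd3, a peroxisomal transporter gene that follows F3, was at 63.7 FPKM in IB and 66.5 in VC, and at 37.4 FPKM in CCIB and 37.6 in CCVC. In the table's coordinates Bhlhe22 had 1 such neighbor, Tceal6, which RefSeq places on chromosome X in GRCr8. It was at 7.72 FPKM in CCIB and 15.5 in CCVC, and at 12.8 FPKM in IB and 13.4 in VC.

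**Figure D5:**
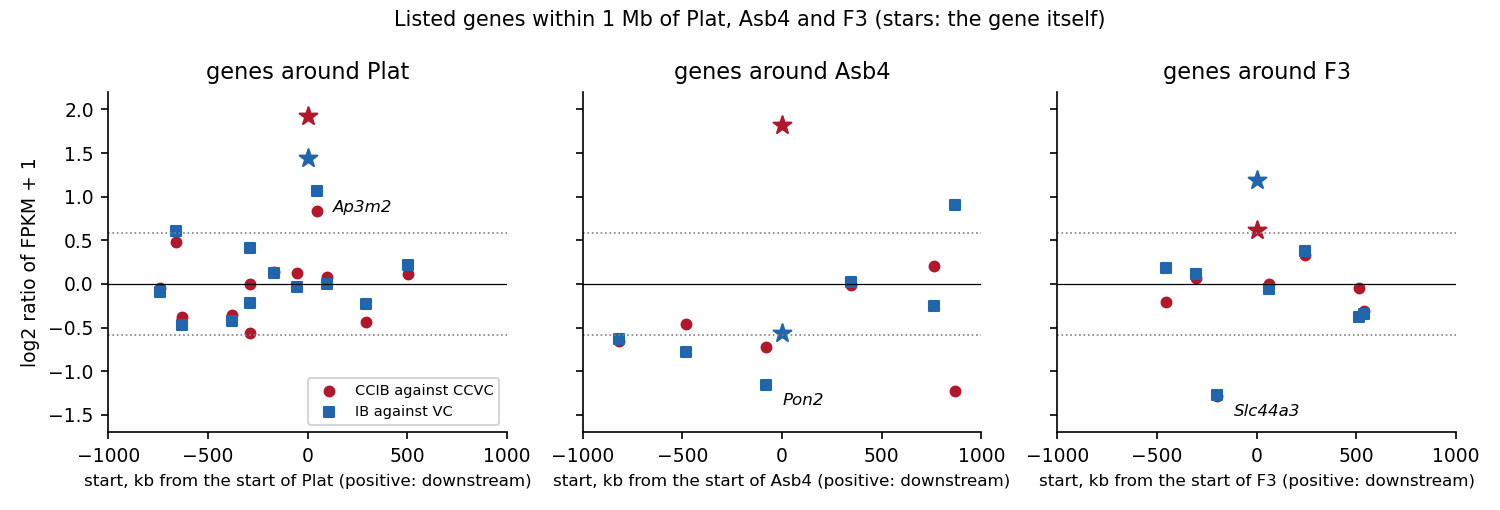
Log2 ratio of FPKM + 1 (vertical axis) of listed genes around Plat, Asb4 and F3 against the distance of their start from the start of that gene in kb (horizontal axis, positive downstream), with red circles for CCIB against CCVC, blue squares for IB against VC, stars for the gene itself and dotted lines at 1.5-fold. Only Ap3m2 beside Plat lies above 1.5-fold in both comparisons (0.84 and 1.06), while Pon2 beside Asb4 (-0.72 and -1.15) and Slc44a3 beside F3 (-1.28 and -1.27) lie below it in both.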

How the data were processed

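RNA of 12 INS-1 libraries was sequenced by the authors, who aligned the reads with HISAT2 and deposited FPKM values per gene as 1 column per group. DESeq2 is named in the submitters' processing notes, and versions and genome build are not given in the sources used here. Groups were taken from the sample labels. From the deposited FPKM values, log2 ratios were computed after adding 1 FPKM, for genes whose groups averaged 1 FPKM or more (8795 kept, 899 left out), and counted from 1.5-fold on. No test could be run on group means. The 4 genes and the gene lists were chosen with earlier results of these data known.

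Besides the 4 genes, the text names the first 10 genes by the smaller of both I-BET762 ratios, those next to the lowest ranked member, Asb4, in that order, the 3 nearest genes by Euclidean distance, the genes of each list with the largest ratios each way or acting directly on a member, and neighbors within 1 Mb that passed 1.5-fold. Genes next to F3 and to the 1.5-fold limit, neighbors under 1.5-fold, Hexim1 and the marker genes were added after their values were seen. Start regions came from RefSeq (GRCr8). Alternatives were a pseudocount of 0.1 FPKM, centering on the median, upper quartile scaling, other minima and other fold limits. The calculation was tested on simulated group means, with changes planted only well above 1.5-fold and only in genes of higher level. Genes as low as Asb4 in resting cells and changes near 1.5-fold were not covered. Python 3.11.15, numpy 2.4.6, pandas 2.3.3 and matplotlib 3.10.9 were used.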

Additional observations from a re-analysis of the deposited data

How the results depend on the processing

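Of 24 log2 ratios of the 4 genes, all moved by under 0.1 with centering on the median or with upper quartile scaling, and with a pseudocount of 0.1 FPKM 19 moved by more, with 0 reversed in sign. With that pseudocount the lower level of Asb4 in IB than in VC passed 1.5-fold (-1.50), and with centering the lower level of Bhlhe22 in CCVC than in VC fell just short of it (-0.58). The number of genes higher with I-BET762 in both states was 247 with a pseudocount of 0.1 FPKM, 686 at a lower fold limit and 20 at 2-fold, in place of 164, and Bhlhe22 and Plat, but not F3, were among those at 2-fold. The other settings gave 124 to 230. No paired analysis was possible because the columns carry no replicate numbers, and for the same reason no library could be left out. Asb4 in resting cells, at 0.222 and 0.808 FPKM in IB and VC, is the value most limited by depth, which is not known here.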

Other observations

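The genes that shared the course of Asb4, at 1.5-fold or more above VC in CCVC, again so above CCVC in CCIB, and with a level in IB at least slightly under that in VC, numbered 12. Those given here were named after their values were seen. Pdgfb, a growth factor of mesenchymal cells, was at 11.5 FPKM in CCIB and 5.19 in CCVC, and at 1.248 FPKM in IB and 2.67 in VC. The neutrophil chemokine gene Cxcl2 was at 20.6 FPKM in CCIB and 11.996 in CCVC, and at 0.118 FPKM in IB and 0.172 in VC. Cx3cl1, a membrane-bound chemokine, was at 46.0 FPKM in CCIB and 28.2 in CCVC, and at 1.876 FPKM in IB and 1.878 in VC, a difference between IB and VC that has no size worth reading. NOS2, the inducible nitric oxide synthase, was at 17.5 FPKM in CCIB and 11.0 in CCVC, and under 0.04 FPKM in both IB and VC. For Cxcl2 and NOS2 too the log2 ratio of IB to VC was small (-0.07 and -0.008), against -0.57 for Asb4. The endoplasmic reticulum transcription factor gene Creb3l1 was at 22.3 FPKM in CCIB and 13.8 in CCVC, and at 4.71 FPKM in IB and 5.85 in VC.

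Among the 12 genes of this course Asb4 had the largest log2 ratio of CCIB to CCVC, at 1.82, and the next were Ckmt1b at 1.04 and Pdgfb at 1.01. Asb4 was chosen with this ratio known, so nothing is read from its place. As the group means carry no error, these are values without a test.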
